A study of Caenorhabditis elegans with 2 samples.

Results

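The microRNAs (miRNAs) cel-miR-71, cel-miR-228 and cel-miR-246 of Caenorhabditis elegans are known for their effects on adult lifespan. All loci carrying these names, with either arm suffix, were taken from the deposited miRNA table by name, whatever their values. They are 6 mature loci from 3 hairpins, of 375 mature loci from 223 hairpins in the table. The 3 hairpins were themselves chosen with earlier results of these data known. Small RNA was sequenced from whole worms of the wild-type strain N2, labelled Day 1, given either enoxacin or vehicle, and each group has 1 library. The compound, an antibiotic of the fluoroquinolone class, is known to promote miRNA processing in mammalian cells through a partner of Dicer, and the study addressed what it does to miRNA abundance and to worm lifespan. The sources used here give no dose, length of treatment or make-up of the vehicle.

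A miRNA is cut from a hairpin as a short duplex. One strand, the guide, is usually kept in an Argonaute protein and recognises target transcripts through the bases near its 5′ end. The other strand is mostly degraded and is the minor arm in sequencing data. In worms, loss of mir-71 is known to shorten life, and mir-71 is needed for the long life of animals that lack a germline, where it acts in neurons and promotes the activity of the transcription factor DAF-16. Loss of mir-246 likewise shortens life. Loss of mir-228 is known to lengthen it, and both mir-71 and mir-228 take part in the response to dietary restriction. The roles of the 3 hairpins thus point in different directions, and their levels are described one by one.

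The authors scaled reads to library totals of 8787665 for enoxacin and 10698845 for vehicle, which gives RPM, the reads of a locus per 1000000 reads of its library. Mature miRNAs took 332407 reads in enoxacin and 400555 in vehicle. Muscle, intestine, neuron and embryo miRNAs were all present, as whole worms would hold, except that lsy-6 of neurons had no read in either library. The summed level of mir-60, known from the intestine, was 104 RPM in enoxacin and 47.2 RPM in vehicle. That of mir-1 of muscle was 370 RPM in enoxacin and 409 RPM in vehicle. The neuron miRNAs were at 13.9 RPM in enoxacin and 16.3 RPM in vehicle. The mir-35 to mir-42 hairpins of embryos summed to 5355 RPM in enoxacin and 5666 RPM in vehicle. Within that sum, enoxacin to vehicle ratios lay on both sides of 1, such as miR-35-3p at 0.795 (0.770 to 0.820) and miR-40-3p at 1.32 (1.23 to 1.43). The part of such differences in the values below was not tested. There was no replicate and hence no test between the groups. Ratios of enoxacin to vehicle are followed by their exact 95% counting intervals, which hold no error between cultures or libraries. Levels of different miRNAs are read counts, whose mature lengths were 21 to 23 nt for these 6 loci, and they were not corrected for unequal capture of different sequences.

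miR-71-5p, the guide strand of mir-71, was the most abundant of the 6 and had nearly the same level in both libraries. It had 6954 reads (791 RPM, 773 to 810) in enoxacin and 8404 reads (786 RPM, 769 to 802) in vehicle. The counting intervals of the 2 levels overlapped over most of their width. It ranked at place 10 by reads among all mature loci in each library, with 2.09% of miRNA reads in enoxacin (2.04 to 2.14%) and 2.10% in vehicle (2.05 to 2.14%). The ratio was 1.01 (0.976 to 1.04). At this depth the interval would have left 1 at an observed ratio of 1.03 or more, or of 0.968 or less. A true difference of that size could still have been missed. Among the 10 loci with the most reads over both libraries, of which it is 1, it alone had an interval that included a ratio of 1. This holds for the authors' totals.

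miR-71-3p, the minor arm, had 30 reads (3.41 RPM, 2.30 to 4.87) in enoxacin and 35 reads (3.27 RPM, 2.28 to 4.55) in vehicle. Its ratio of 1.04 had a wide interval, 0.619 to 1.75. Both arms of mir-71 thus had point ratios near 1, but the minor arm could have differed by over 1.5-fold without being seen at this depth.

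miR-228-5p, the guide strand of mir-228, is known from glia. It had 1082 reads (123 RPM, 116 to 131) in enoxacin and 1309 reads (122 RPM, 116 to 129) in vehicle. Its 2 levels were within counting error of each other, with a ratio of 1.01 (0.928 to 1.09), and it ranked at place 33 in both libraries. An observed ratio of 1.08 or more, or of 0.920 or less, would have had an interval that left out 1. miR-228-3p, its minor arm, had 3 reads (0.341 RPM) in enoxacin and 8 reads (0.748 RPM) in vehicle. Its ratio of 0.457 has an interval from 0.0780 to 1.90, so no direction can be read from it.

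miR-246-3p, the guide strand of mir-246, was the member whose point value lay furthest from equality among those with enough reads to compare. It had 109 reads (12.4 RPM, 10.2 to 15.0) in enoxacin and 98 reads (9.16 RPM, 7.44 to 11.2) in vehicle. The ratio of 1.35 had an interval of 1.02 to 1.80, which left 1 out by a small margin. The separate intervals of the 2 levels overlapped. It ranked at place 68 in enoxacin and 69 in vehicle. miR-246-5p, the minor arm, had 0 reads in enoxacin, which allows up to 0.341 RPM, and 1 read (0.0935 RPM) in vehicle, so no fold is given.

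**Figure D1:**
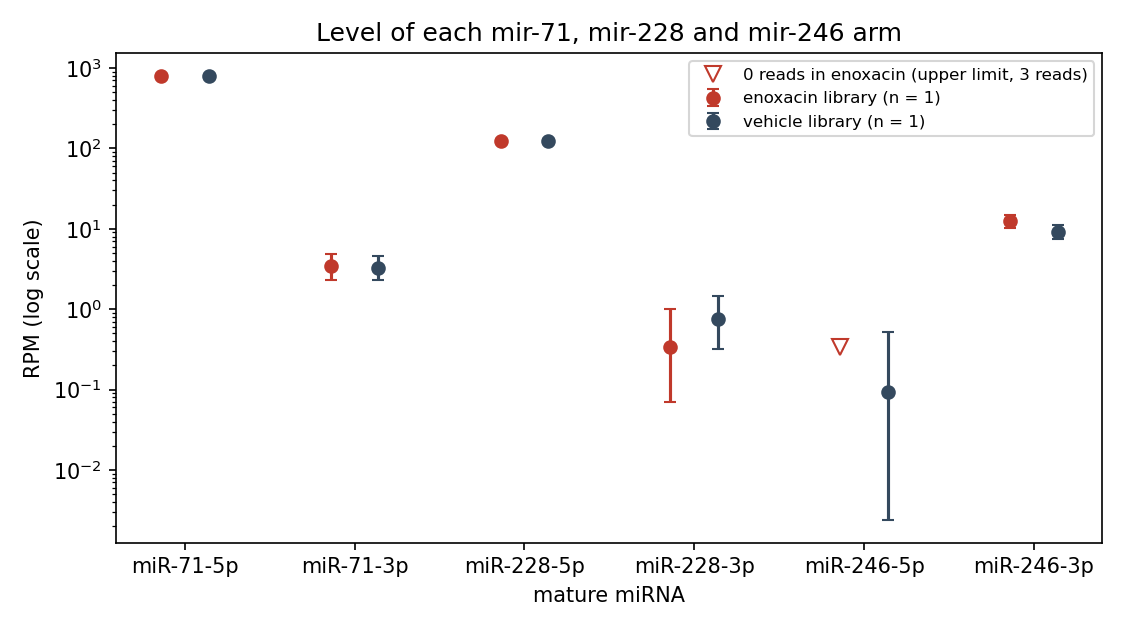
Level of each mir-71, mir-228 and mir-246 arm in RPM on a log axis, in the enoxacin library (red) and the vehicle library (dark blue). Bars are exact 95% Poisson intervals and cover counting error only, and the open triangle is the 3-read upper limit for an arm with 0 reads. Both guide strands of mir-71 and mir-228 sit at nearly equal heights, at 791 RPM in enoxacin and 786 RPM in vehicle for miR-71-5p and at 123 RPM in enoxacin and 122 RPM in vehicle for miR-228-5p. The point of miR-246-3p is higher in enoxacin, at 12.4 RPM, against 9.16 RPM in vehicle, with overlapping bars.

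The order of the levels was the same in both libraries. miR-71-5p was followed by miR-228-5p, miR-246-3p, miR-71-3p, miR-228-3p and miR-246-5p. Neighbours in this order had intervals that did not overlap in either library, apart from the last pair, miR-228-3p and miR-246-5p, whose intervals overlapped in both. The minor arm of mir-71 was therefore more abundant than the minor arms of the other two hairpins. With all arms summed, the 3 hairpins held 8178 reads in enoxacin and 9855 in vehicle. Both sums made up 2.46% of miRNA reads, and their ratio was 1.01 (0.981 to 1.04). Most of these reads were of miR-71-5p, 6954 in enoxacin and 8404 in vehicle, so the ratio of the sums mainly reflects that arm.

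The values were then read against those of the 152 loci that had 20 or more reads when both libraries were summed. To be counted as higher or lower, a locus had to pass 1.5-fold with an interval that left out 1. Of the 6 loci, 4 reached the minimum (both mir-71 arms, miR-228-5p and miR-246-3p) and none of the 4 was counted, against 32 of all 152 loci (21.1%), of which 20 were higher (13.2%) and 12 lower (7.89%). With no fold required, 1 of the 4 had an interval that left out 1 (miR-246-3p, upward), against 75 of 152 (49.3%), of which 49 were upward (32.2%) and 26 downward (17.1%). With 4 loci, these counts cannot be set apart from the shares over all loci. The median ratio of the 152 loci was 1.09, with quartiles of 0.884 and 1.35. miR-71-5p had a higher ratio than 37.5% of them, miR-228-5p than 36.8%, miR-71-3p than 42.1% and miR-246-3p than 74.3%. By distance from a ratio of 1 under the authors' totals, miR-228-5p and miR-71-5p took places 3 and 4 of 152, while miR-246-3p took place 96. These places depend on the scaling, which is varied below.

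**Figure D2:**
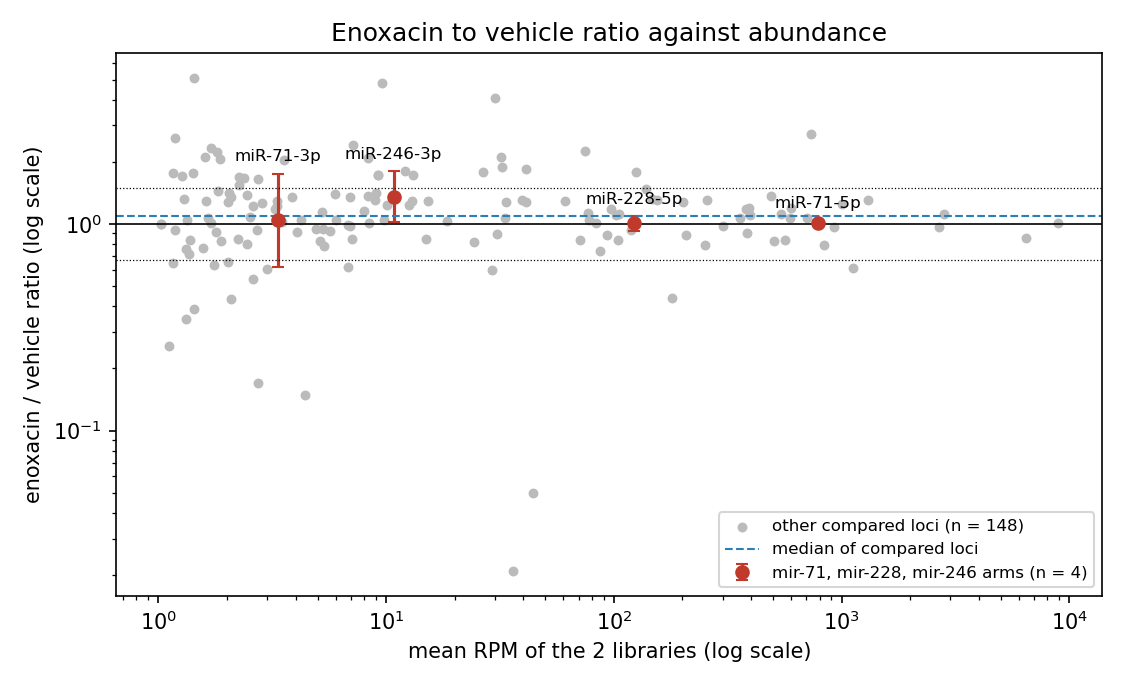
Enoxacin to vehicle ratio against the mean RPM of the 2 libraries, both on log axes, for the 152 compared loci. The 4 compared arms of mir-71, mir-228 and mir-246 are red with 95% counting intervals, dotted lines mark 1.5-fold, and the dashed line is the median ratio of 1.09. The red points for miR-71-5p and miR-228-5p lie at 1.01, just under the median, and miR-246-3p lies at 1.35, above it.

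Because the median ratio of all compared loci lay above 1, the choice of scaling bears on miR-71 and miR-228. With median-of-ratios scaling every log2 ratio shifted by -0.15, and with trimmed-mean (TMM) scaling by -0.14. Under the first, the ratio of miR-71-5p was 0.910 (0.882 to 0.940) and that of miR-228-5p was 0.910 (0.838 to 0.987). Under the second, they were 0.916 (0.888 to 0.946) and 0.915 (0.844 to 0.993). Both guide strands were thus level between libraries by the authors' totals, and below 1 beyond counting error under both of these scalings. The intervals take each scaling factor as exact, and those of miR-228-5p left out 1 by a small margin. The median of ratios was taken over all loci with reads in both libraries, including those under the minimum of 20 reads. miR-246-3p had a ratio of 1.22 (0.923 to 1.62) with the median of ratios and 1.23 (0.929 to 1.64) with TMM, and both intervals included 1. None of these values passed 1.5-fold.

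Ratios between the hairpins within a library do not depend on the scaling. Reads of miR-71-5p were 6.43 times those of miR-228-5p in enoxacin (6.03 to 6.86) and 6.42 times in vehicle (6.06 to 6.81). The balance of these guide strands was thus the same in both libraries within counting error, with a quotient of 1.00 (0.917 to 1.09). Reads of miR-71-5p were 63.8 times those of miR-246-3p in enoxacin (52.8 to 77.8) and 85.8 times in vehicle (70.3 to 106). The quotient was 0.744 (0.559 to 0.988). Reads of miR-228-5p were 9.93 times those of miR-246-3p in enoxacin (8.15 to 12.2) and 13.4 times in vehicle (10.9 to 16.6), a quotient of 0.743 (0.553 to 0.998). miR-246-3p therefore made up more of the reads of these miRNAs in enoxacin than in vehicle, with intervals that barely left out 1. With both arms of each hairpin summed, the quotient of mir-228 over mir-246 was 0.748 and its interval, 0.557 to 1.004, included 1.

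No shift in the balance of the arms was seen beyond counting error. In mir-228 and mir-246 the minor arms had so few reads that a large shift could have been missed. The minor arm of mir-71 took 0.430% of the hairpin's reads in enoxacin (0.290 to 0.613%) and 0.415% in vehicle (0.289 to 0.576%). That of mir-228 took 0.276% in enoxacin (0.0571 to 0.806%) and 0.607% in vehicle (0.263 to 1.19%). That of mir-246 was 0 of 109 reads in enoxacin, which by the limit of 3 reads allows a share of up to 2.75%, and 1 of 99 reads in vehicle (1.01%, 0.0256 to 5.50%). In all 3 hairpins the intervals of the libraries overlapped, and the odds of the minor against the major arm had a quotient between libraries whose interval included 1. That interval left out 1 in 12 of 91 hairpins (13.2%) with both arms listed and 20 or more reads. The 91 include hairpins with no read of the minor arm, for which no such interval was computed. The share among hairpins with an interval is therefore somewhat higher. The 3 hairpins do not stand apart in this. The minor arm was the 3p strand in mir-71 and mir-228 and the 5p strand in mir-246. Over both libraries the minor arms took 0.421%, 0.458% and 0.481% of the reads of mir-71, mir-228 and mir-246. The last of these rests on 1 read of 208. These shares lie near the middle of those of the 91 hairpins, whose median was 0.671% with quartiles of 0.206% and 4.70%.

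**Figure D3:**
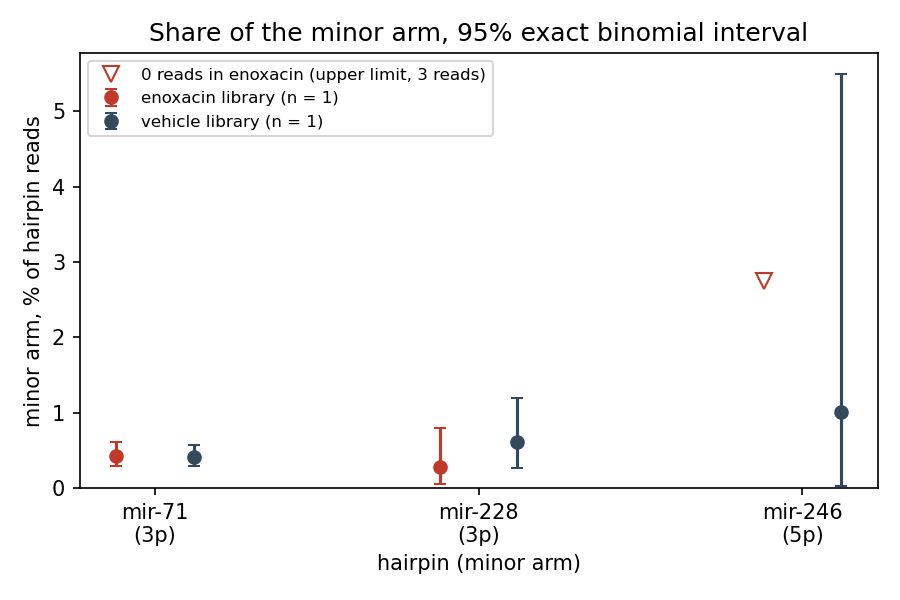
Share of the minor arm in the reads of each hairpin, in percent, in the enoxacin library (red) and the vehicle library (dark blue), with exact 95% binomial intervals. The open triangle marks the upper limit of 2.75% for mir-246 in enoxacin, where the minor arm had 0 reads. For mir-71 the shares are 0.430% in enoxacin and 0.415% in vehicle, and for mir-228 they are 0.276% in enoxacin and 0.607% in vehicle, with overlapping intervals.

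The 3 hairpins lie apart in the genome. The positions are those of the deposited table, in build ce10 per the submitters' processing notes. miR-71-5p lies on chromosome I from 9379975 to 9379997 and miR-71-3p from 9379940 to 9379960, both on the minus strand. miR-228-5p lies on chromosome IV from 5562031 to 5562053 and miR-228-3p from 5562073 to 5562094, on the plus strand. miR-246-5p and miR-246-3p lie on the same strand of chromosome IV, from 10940131 to 10940153 and from 10940173 to 10940193. The stretch between the arms is 14 bases in mir-71, equal to the minimum over the 91 hairpins, which other hairpins share, and 19 bases in mir-228 and mir-246, against a median of 18. Each mature name has 1 locus in the table, so reads were not divided among copies.

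In the annotation of another build (WBcel235), looked up by hairpin name, mir-71 lies within an intron of the protein-coding gene ppfr-1, on the same strand. The non-coding RNA gene F16A11.6 overlaps mir-71 on the opposite strand. The sources used here do not say how strand was treated in counting, so reads from that gene and from mir-71 may not be separable. mir-228 and mir-246 overlap no other annotated gene. The nearest other miRNA locus to mir-71 belongs to mir-2, at 7.10 kb in the deposited positions, and it too lies in an intron of ppfr-1 on the same strand. In many invertebrates mir-71 and mir-2 genes are known to be clustered. miR-2-3p had 4537 reads (516 RPM) in enoxacin and 6601 reads (617 RPM) in vehicle, a ratio of 0.837 (0.806 to 0.869). It was thus lower in enoxacin beyond counting error, short of 1.5-fold. Reads of miR-71-5p were 1.53 times those of miR-2-3p in enoxacin (1.48 to 1.59) and 1.27 times in vehicle (1.23 to 1.32), a quotient of 1.20 (1.15 to 1.26). These miRNAs from introns of 1 gene therefore had unequal ratios. This pair was chosen after its values were seen. The nearest locus to mir-228 is miR-790-5p at 4.32 kb, with 12 reads in enoxacin and 23 in vehicle (ratio 0.635, 0.288 to 1.33). The nearest to mir-246 is miR-2210-3p at 25.5 kb, with 4 reads in enoxacin and 0 in vehicle, too few to compare.

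miRNAs of like abundance and like ratio were then named. Among loci with reads within 2-fold of its own, the nearest log2 ratios to that of miR-71-5p belonged to miR-72-5p (ratio 0.963, 0.935 to 0.992), miR-82-3p (1.07, 1.03 to 1.11) and miR-39-3p (1.07, 1.03 to 1.11), of 13 candidates. The intervals of all 3 left out 1, on different sides. For miR-228-5p they were miR-45-3p (1.01), miR-44-3p (1.05) and miR-67-3p (0.931), of 19 candidates, with intervals that all included 1. For miR-246-3p they were miR-50-5p (1.35), a copy of miR-5592-3p (1.36) and miR-259-5p (1.40), of 28. All 3 of these intervals included 1, unlike that of miR-246-3p, but the 3 loci had fewer reads and hence wider intervals. They had 61 to 84 reads in enoxacin and 53 to 75 in vehicle, against 109 and 98 for miR-246-3p. For miR-71-3p they were miR-1-5p (1.04), miR-46-5p (1.05) and miR-39-5p (1.02), of 43. Likeness here rests on 1 ratio from 2 libraries.

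The miRNAs next to them in abundance could have quite different ratios. miR-35-3p and miR-58-3p stand just above and just below miR-71-5p in mean RPM and lie on different sides of 1, at 0.795 (0.770 to 0.820) and 2.73 (2.64 to 2.83). miR-85-3p, just above miR-228-5p, was counted as higher, at 1.79 (1.65 to 1.95), and miR-67-3p, just below it, was at 0.931 (0.857 to 1.01). Both arms of mir-240 flank miR-246-3p. miR-240-3p, just above, was counted as higher at 1.80 (1.37 to 2.37), and miR-240-5p, just below, had a ratio of 1.24 (0.928 to 1.66). miR-71-3p stands between miR-39-5p and miR-72-3p, at 1.02 (0.612 to 1.69) and 1.30 (0.769 to 2.19).

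Other miRNAs with known roles in adult lifespan or its control were set beside these values. The list held lin-4, mir-34, mir-80, mir-83, mir-84, mir-238, mir-239a, mir-239b and mir-241, with 18 loci from 9 hairpins, of which 14 reached the minimum. Of these 14, 2 were higher, 1 was lower and 11 were neither. The 3 counted loci are 21.4% of the list, against 21.1% of all 152 loci, and the median ratio was 1.09 in both. miR-238-3p, whose loss is known to shorten life as does that of mir-71 and mir-246, had 380 reads (43.2 RPM) in enoxacin and 220 reads (20.6 RPM) in vehicle, a ratio of 2.10 (1.78 to 2.49). miR-239a-5p, from a locus whose loss is known to lengthen life as does that of mir-228, had 122 reads in enoxacin and 120 in vehicle, a ratio of 1.24 (0.954 to 1.61). miR-84-3p, a minor arm with 21 reads in enoxacin and 11 in vehicle, was the other higher locus (ratio 2.32, 1.07 to 5.34). The major arm, miR-84-5p, was at 1.06 (1.02 to 1.12). The lower locus was miR-34-5p, with 37 reads in enoxacin and 900 in vehicle (ratio 0.0501, 0.0350 to 0.0695). The other arm, miR-34-3p, had 765 reads in enoxacin and 1055 in vehicle, a ratio of 0.883 (0.803 to 0.970). lin-4-5p, which times larval stages and also acts on adult lifespan, was at 1.18 (1.13 to 1.24).

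**Figure D4:**
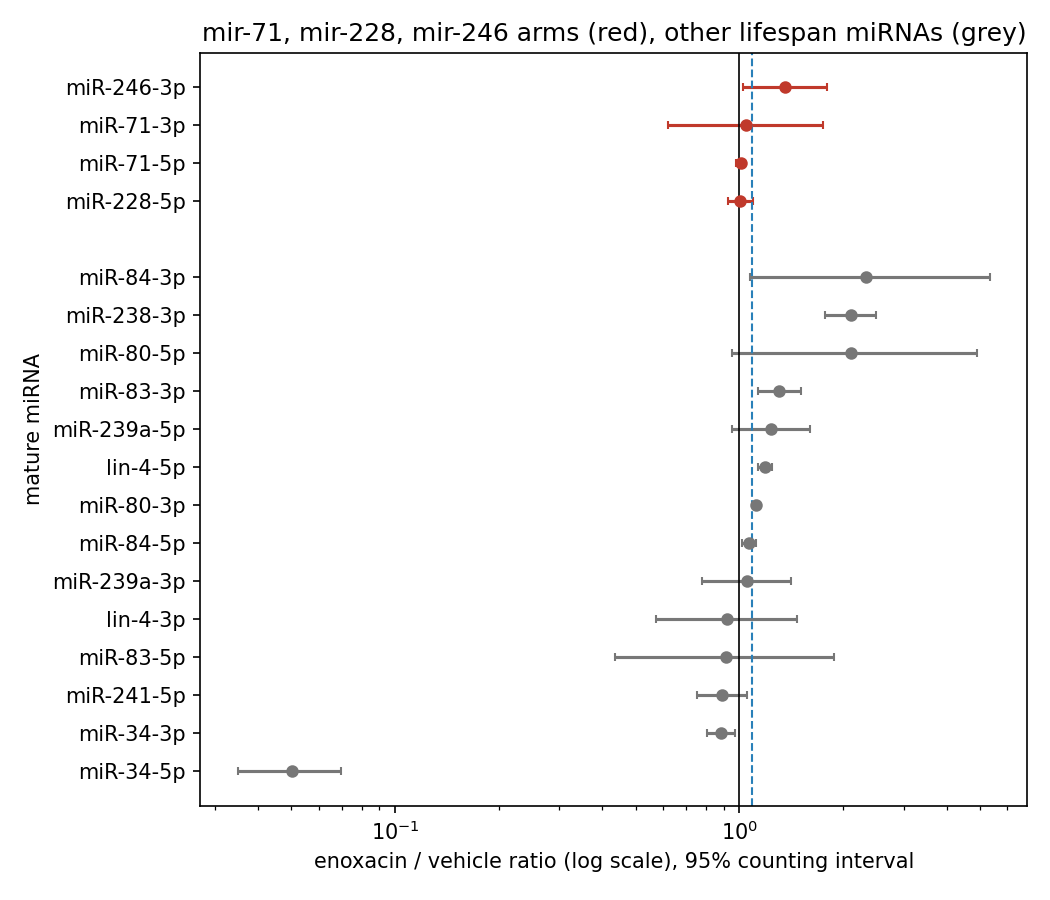
Enoxacin to vehicle ratio on a log axis with exact 95% counting intervals, for the 4 compared arms of mir-71, mir-228 and mir-246 (red) and the 14 compared loci of the other lifespan miRNAs (grey). The solid line marks a ratio of 1 and the dashed line the median of 1.09 over 152 loci. The red points lie between 1.01 and 1.35, while the grey points run from 0.0501 for miR-34-5p to 2.32 for miR-84-3p.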

How the data were processed

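Per the labels' protocols, TRIzol RNA with integrity numbers above 9 (10 µg for each group) was enriched for small RNA, and a SOLiD kit was used to prepare the libraries. The submitters' processing notes name Bowtie2, bedtools and build ce10, while the sources used here give no version, filter or treatment of strand and multiple matches. Worms came from 3 independent experiments per the series text, and whether they were pooled is not given there. The authors deposited a raw read count per mature locus and an RPM value, a count divided by 1 fixed total per library. They also deposited a ratio of RPM values and its log2, and the ratio equalled the one computed here. The column headed as control was taken as vehicle.

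Here, ratios of counts over the authors' totals were given exact conditional binomial (Clopper-Pearson) 95% intervals. Level intervals are exact Poisson and share intervals exact binomial. Quotients of within-library ratios have exact conditional odds ratio intervals. All cover counting error only, and, without molecular identifiers, reads cannot be equated with molecules. One read was worth 0.114 RPM in enoxacin and 0.0935 RPM in vehicle, and a count of 0 allows 3 reads. Log2 ratios used a pseudocount of 0.5 reads, on which the 1.5-fold criterion was applied. Loci named besides those of the 3 hairpins and the lifespan list were the 3 nearest in log2 ratio within 2-fold reads and the next above and below in mean RPM. The hairpins and lists were chosen with earlier results of these data known. Alternatives were median-of-ratios and TMM scaling (edgeR 4.0.16), other totals, minimums, thresholds and a pseudocount of 1, and arms summed. Python 3.11.15 (scipy 1.17.1, pandas 2.3.3, numpy 2.4.6) and R 4.3.3 were used.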

Additional observations from a re-analysis of the deposited data

How the results depend on the processing

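No paired analysis was possible because each group has 1 library, and none could be left out for the same reason. Under the median of ratios and TMM, the log2 ratio of miR-71-5p was -0.14 and -0.13, against 0.01 by the authors' totals, and that of miR-228-5p was likewise -0.14 and -0.13, against 0.01. These scalings shift all loci equally by construction. They also turned the median log2 ratio of the other lifespan miRNAs, 0.13 by the authors' totals, to -0.020 and -0.010. The log2 ratio of miR-246-3p ran from 0.29 to 0.44 over all settings, and none of the arms of the 3 hairpins that were given a ratio was counted as higher or lower under any scaling. At a lower threshold, a log2 ratio of 0.32, miR-246-3p would count as higher by the authors' totals. Other totals, a pseudocount of 1 and summed arms left every arm with enough reads within its counting interval. Over all loci, 20 higher became 12 at a 2-fold threshold, 35 at that lower threshold and 13 with arms summed, and 12 lower became 6 at a minimum of 100 reads, where fewer loci were compared, and 7 with arms summed. The intervals of the 5p share at 99% were wider by construction, and the shares themselves do not depend on that level. Depth limits miR-228-3p and miR-246-5p, with 11 reads and 1 read over both libraries.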
